A study of Mus musculus with 42 samples.

Results

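The carotid intima that had stayed at high flow was compared between mice whose endothelium had lost Rbfox2 and their littermate controls, 7 days after surgery on the opposite artery. The comparison rests on 4 of the 42 samples of the series, 2 libraries a side, chosen by their labels. All 4 come from the contralateral carotid of mice in which the left carotid had been partly ligated, so both groups had the operation and neither artery was itself ligated. The EC-KO mice carried Cdh5(PAC)-CreERT2, an inducible Cre that the Cdh5 promoter drives in endothelial cells, together with the Rosa26-mTmG reporter and floxed Rbfox2 (Rbfox2 lox/lox). The controls were littermates with the reporter and Rbfox2 lox/lox but no Cre, so the floxed allele and the reporter were common to both groups and the Cre was not. The labels give a C57 background. The mice were 2 to 7 months old, in paired groups of males and females, and each library was made from a pool of Trizol flushes of the intima. The text of the study gives pools of 3 to 5 arteries for libraries at 48 hours. For these libraries it says only that arteries were pooled. A pool is 1 sample here, and p-values measure the spread between these libraries. Those numbered 4 and 5 in the deposited table are called control library 4 and 5 and EC-KO library 4 and 5, and a shared number was not taken as a pairing.

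Rbfox2 is an RNA-binding protein that recognises the sequence UGCAUG in introns. It is known mostly as a splicing regulator, which often promotes an exon when it binds downstream of it and represses one when it binds upstream. Endothelial cells line the artery, feel the drag of the blood, and at high flow keep a quiescent state with high Klf2 and Nos3. The deposited values are totals per gene, so they carry the level of a transcript and not its exon use. The letters TGCATG (transcribed strand, the 300 bases after an exon, or the intron where it is shorter) were found after 3 of 12 exons that the study describes as regulated by Rbfox2. They occur in 12.3% of 139470 windows of the full 300 bases behind internal exons of mm9. Among the 12, the windows of Gpr116 and Mfge8 were shorter, at 155 and 227 bases, and held no match. The study chose those exons on samples that include these, and a match is a description of letters and not a binding site. The 3 stretches are shown because they are the element that the deleted protein recognises, each 5′ to 3′ on the transcribed strand with the element in capitals, at chr6:91209841-91209900 (+, 104 bases after an exon of Fbln2), chr1:71660263-71660322 (−, 42 bases after the EIIIB exon of Fn1, the first of 2 matches) and chr10:127928624-127928683 (−, 120 bases after an exon of Myl6).
Fbln2: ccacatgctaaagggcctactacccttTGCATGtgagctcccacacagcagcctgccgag
Fn1 (EIIIB): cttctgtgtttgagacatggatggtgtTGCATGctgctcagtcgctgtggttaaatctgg
Myl6: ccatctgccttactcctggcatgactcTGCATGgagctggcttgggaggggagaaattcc
The totals of the genes that carry them are given below beside the other genes of that list.

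The 4 libraries held 11252801 to 17964837 counts and had 13067 to 14451 genes above 0. Endothelial markers made up a similar part of every library, with 18934 and 19869 CPM (counts scaled to the library total) in the controls and 20622 and 20478 in EC-KO. Pecam1, the endothelial adhesion molecule, read 2213 and 2357 FPKM against 2254 and 2337, where FPKM is a level scaled for transcript length and sequencing depth. Smooth muscle markers were at 322 to 441 CPM in the 4 libraries. Xist was at 4.34 to 6.45 FPKM in all 4, and was the 1 of 5 sex-linked genes with enough counts to be tested. The median of the 5 was 0 to 0.0141 FPKM, and Kdm5d, a gene of the Y chromosome, was listed at 0 in all 4 libraries. The sex of the mice in these pools was not tested. Replicates differed by more than counting noise in both groups.

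EC-KO library 4 stood apart by its T cell RNA, and the counts of calls, and the values of several lists and genes, are given with and without it. The 20 T cell markers took 0.00811% (95% exact binomial interval 0.00766 to 0.00858) of the counts of control library 4 and 0.00156% (0.00133 to 0.0018) of control library 5. They took 0.184% (0.182 to 0.186) of EC-KO library 4 and 0.0208% (0.0201 to 0.0215) of EC-KO library 5. Reads carry no molecular identifiers, so these intervals cover counting error only. All 19 members tested were higher in both EC-KO libraries than in either control, a separation that 22.9% of all 12450 genes tested had in that direction. The median level of the list was 1.27 and 0 FPKM in the controls against 25.9 and 3.11. Members this low in the controls can enter the test through EC-KO alone, so their separation and unadjusted p are partly set by the filter on low counts. None passed edgeR's quasi-likelihood test with Benjamini-Hochberg adjustment, and all 19 had an unadjusted p under 0.05 (4.43% of all genes, higher). DESeq2 called 1, Trat1 (0.831% of all genes, in either direction). The median log2 fold change of the list was 4.69, and 2.48 without EC-KO library 4. Cd3e, a subunit of the T cell receptor complex, read 2.26 and 0 FPKM in the controls against 64.3 and 7.02. Cd4 and Cd8a both had their highest values in EC-KO library 4, at 30.5 and 53.2 FPKM. Genes of T cell precursors, chosen after their values were seen, had the same order. Dntt, which adds bases at antigen receptor joints, read 4.05 and 0.323 FPKM against 95.8 and 9.77. Rag1, the recombinase of those joints, read 0.781 and 0.0545 against 24.1 and 3.19. Ptcra, the partner of the receptor's beta chain in precursors, was listed at 0 in both controls and read 6.4 and 0.979 in EC-KO. NK cell markers had the same order at a far lower level, with 1.56 and 0 CPM in the controls against 12.5 and 2.95. B cell markers summed to 24 and 20.5 CPM against 34.2 and 22.7. Their median level, near the floor, was 0.0112 and 0 FPKM against 0.44 and 0.141. Of the 6 tested, 3 had groups that did not overlap with EC-KO the higher and 1 with EC-KO the lower (22.9% and 16% of all genes). None of the 6 had an unadjusted p under 0.05 in edgeR, and their median log2 fold change was 0.55. In bulk RNA, fewer cells of a type and less RNA per cell cannot be told apart.

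Control library 5 stood apart on fat cell RNA. The brown fat list read 0.0889 CPM there, against 143 in control library 4 and 264 and 96.9 in EC-KO. The white fat list read 0.711 there, against 49.5, 102 and 71.8. Fabp4, a fatty acid carrier of fat cells and capillary endothelium, read 272 and 8.04 FPKM in the controls against 451 and 314. Neutrophil markers were at 22.8 and 13.5 CPM in the controls and 8.1 and 3.34 in EC-KO, and 2 of the 7 tested had an unadjusted p under 0.05, both lower (2.8% of all genes). DESeq2 called 1 (0.831% of all genes, in either direction). It was Ngp, a granule protein, at 6.14 and 0.961 FPKM against 0.0622 and 0.0547. The median log2 fold change of the list was −1.25, and −2.52 without EC-KO library 4.

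**Figure D1:**
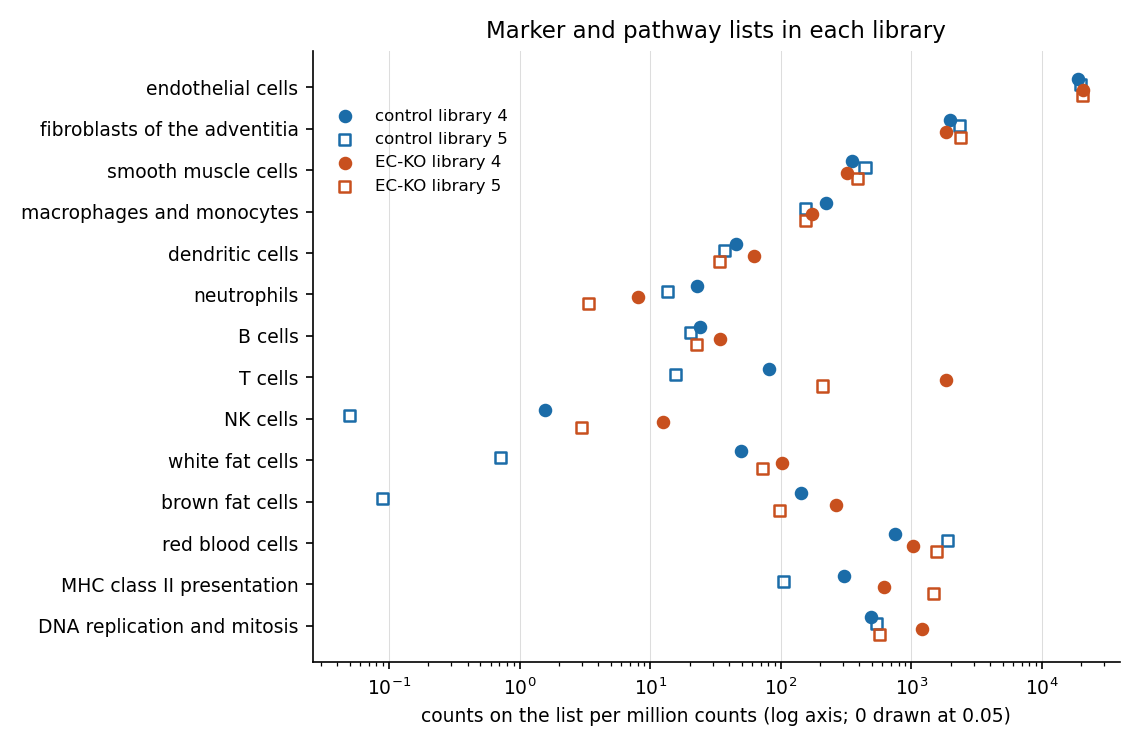
Summed CPM of each marker or pathway list (log axis), for the 2 control libraries (blue) and the 2 EC-KO libraries (orange), with filled circles for number 4 and open squares for number 5. Endothelial markers lie together between 18934 and 20622, T cell markers run from 15.6 to 1838, and fat cell markers are near the left edge in control library 5 only.

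Rbfox2 itself was low in both EC-KO libraries. The gene (chr15:76909420-77137483, −, mm9) read 3.66 and 3.84 FPKM in the controls and 0.791 and 1.05 in EC-KO, so the groups did not overlap. The means were 3.75 ± 0.125 and 0.922 ± 0.185 FPKM (SD, n = 2). The log2 fold change was −2.07 ± 0.28 (SE), which did not pass edgeR over all genes (adjusted p = 0.301) and passed DESeq2 (adjusted p = 1.16e-05). Without EC-KO library 4 it was −1.85 (edgeR adjusted p = 0.0719). Which exons the floxed allele removes is not given in the sources used here, so part of the remaining counts may come from exons outside the deletion. Rbfox1 and Rbfox3, the other members of the family, were at 0 to 0.0282 FPKM in these 4 libraries. In cultured aortic endothelial cells, with 1 library a side, Rbfox2 read 9.33 FPKM in the control and 0.675 in EC-KO.

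Fkbp7 was the 1 gene of 12450 that passed the test at high flow, which is 0.00803% of the genes tested. It encodes a peptidyl-prolyl isomerase of the FK506-binding family in the endoplasmic reticulum. The gene (chr2:76501101-76511142, −) read 80.4 and 74.1 FPKM in the control libraries and 6.21 and 6.27 in the EC-KO libraries. Both EC-KO values lie far below both controls, and the replicates lie close together in each group. The means were 77.3 ± 4.46 and 6.24 ± 0.0461 FPKM (SD, n = 2), and it fell by 3.68 ± 0.20 (SE) on the log2 scale (edgeR adjusted p = 0.00758, DESeq2 adjusted p = 2.7e-37). Without EC-KO library 4 the log2 fold change was −3.63 (edgeR adjusted p = 0.000178). The high-flow libraries of wild-type mice at 48 hours, 4 in number and given control antibody or PBS liposomes, held 43.2 to 54.8 FPKM of it. In culture it read 44.6 FPKM in the control and 1.6 in EC-KO. The study had also picked Fkbp7 for qPCR in low-flow arteries from the low-flow libraries of the series.

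The number of genes called depended on the tool and on single libraries. DESeq2 called 110 of 13234 genes (0.831%), 80 higher and 30 lower in EC-KO. Leaving out EC-KO library 5, so that EC-KO library 4 stood alone for its group, gave 258 calls in edgeR, of which 16 were T cell markers and 14 were genes of DNA replication and mitosis. Leaving out EC-KO library 4 gave 25, with none on the T cell list, and 0 when all 7 day artery groups were fitted together without it, so each gene described as called without that library is called in the first of these fits and not in the other. Leaving out control library 4 gave 22, with 6 on the fat cell lists, and leaving out control library 5 gave 1. With an arm of 1 library, that library is assumed to vary as the other group does.

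**Figure D2:**
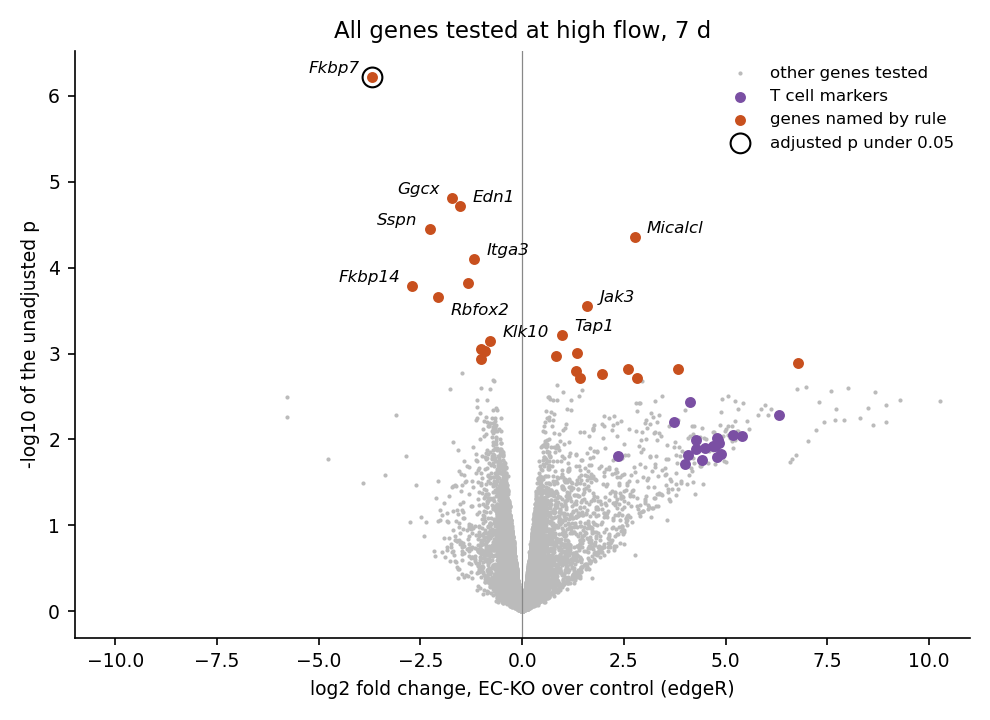
Each point is 1 of 12450 genes, with its log2 fold change (EC-KO over control) against −log10 of its unadjusted edgeR p. Fkbp7 is the 1 circled gene, and the T cell markers (purple) lie at large positive fold changes with modest p.

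The 11 genes that follow Fkbp7 on the lower side had the smallest unadjusted p among genes whose groups did not overlap and that reached a mean of 1 FPKM in a group. They did not pass edgeR over all genes and all passed DESeq2, and they are given as values. Across all genes tested, 16% had groups that did not overlap with EC-KO the lower, and 2.8% had an unadjusted p under 0.05 in that direction. A pair of them act, like Fkbp7, in protein maturation in the endoplasmic reticulum. Fkbp14 (chr6:54527598-54547338, −), a second isomerase of the same family, which assists collagen folding, read 11.9 and 7.32 FPKM against 1.32 and 1.71, a log2 change of −2.70 ± 0.35 (edgeR adjusted p = 0.255). Its exons share 4.97% of their bases with Plekha8 on the opposite strand, and the kit does not keep strand. Plekha8 read 4.4 and 3.26 against 4.13 and 4.5. Ggcx (chr6:72364302-72380706, +), the vitamin K-dependent gamma-glutamyl carboxylase, read 37.4 and 40.7 FPKM against 12.3 and 12.1, a log2 change of −1.73 ± 0.15 (edgeR adjusted p = 0.0796). St3gal1, a sialyltransferase of O-linked sugars in the Golgi, read 12.2 and 13.7 against 5.1 and 5.49. For Fkbp14, Ggcx and St3gal1 the lower control lay above the higher EC-KO library, as the choice required, and for Plekha8 the groups overlap.

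Edn1 (chr13:42396639-42403358, +) encodes endothelin-1, the vasoconstrictor peptide of endothelium. It read 77.3 and 78.9 FPKM in the controls against 29.1 and 26.8 in EC-KO, with means of 78.1 ± 1.15 and 27.9 ± 1.63 FPKM (SD, n = 2) and a log2 change of −1.53 ± 0.14 (edgeR adjusted p = 0.0796). Sspn (chr6:145880161-145913743, +), sarcospan of the dystrophin-glycoprotein complex, read 20.1 and 25.8 against 4.33 and 5.6, a log2 change of −2.26 ± 0.23 (edgeR adjusted p = 0.11). Itga3 (chr11:94905788-94938115, −), an integrin chain that binds laminin, read 52.0 and 50.9 against 24.5 and 22.2 (edgeR adjusted p = 0.164). These 3 had replicates closer to each other than to any library of the other group, which a choice by p and separation favours. Klk10, a secreted kallikrein-related peptidase and one of the more abundant transcripts here, read 793 and 797 FPKM against 497 and 464. 1500015O10Rik, known also as Ecrg4, a secreted peptide precursor, read 66.6 and 57.7 against 30.1 and 33.7. Smarca2, an ATPase of the SWI/SNF chromatin remodelling complex, read 75.3 and 96.5 against 44.4 and 44.2. Stbd1, a glycogen-binding membrane protein, read 41.9 and 38.6 against 24.2 and 20.1. The remaining gene of the 11 is Rbfox2. Without EC-KO library 4, edgeR called Ggcx, Edn1, Sspn, Itga3 and Fkbp14 beside Fkbp7, with adjusted p of 0.00521, 0.00495, 0.00467, 0.0174 and 0.0332.

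The 12 genes on the higher side were chosen by the same rule, and none passed edgeR with all 4 libraries. Micalcl (chr7:119511822-119556617, +), a relative of the MICAL proteins of the cytoskeleton, was the most even of them. It read 1.27 and 1.29 FPKM in the controls and 9.13 and 8.77 in EC-KO, a log2 change of 2.76 ± 0.29 (edgeR adjusted p = 0.111). Without EC-KO library 4 its log2 fold change was again 2.76, with an adjusted p of 0.0205. Jak3, the kinase of the common gamma chain cytokine receptors, read 15.4 and 12.7 against 54.4 and 34.3, a log2 change of 1.60 ± 0.23 (edgeR adjusted p = 0.348, and 0.0206 without EC-KO library 4). Its exons share 7.54% of their bases with Insl3 on the same strand and 5.37% with Gm9933 on the opposite strand. Tap1, which pumps peptides toward MHC class I molecules, read 18.5 and 18 against 34.5 and 39.5. Its exons share 3.87% of their bases with Psmb9 on the opposite strand, and how the counts of these overlapping genes were split was not tested. Rcsd1, which binds the actin-capping protein CapZ, read 25.9 and 22 against 45.6 and 42.5. Stx11, a syntaxin of secretion in cytotoxic lymphocytes, read 4.1 and 3.79 against 9.16 and 12.5.

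Most of the other higher genes had their top value in EC-KO library 4, as did 9 of the 12. Rassf5, a Ras and Rap effector of lymphocytes, read 0.75 and 0.518 FPKM against 15.9 and 3.33. Rgs14, a regulator of G protein signalling, read 0.0921 and 0 against 10.8 and 1.71. In both, the EC-KO libraries differed from each other by over 3-fold, and without EC-KO library 4 the edgeR adjusted p was 0.447 for Rassf5 and 0.977 for Rgs14. Cenpf, a kinetochore protein of dividing cells, read 0.223 and 0.186 against 1.8 and 0.771. Fkbp5, an Hsp90 cochaperone that glucocorticoids induce, read 6.51 and 7.96 against 23.5 and 14.5. The part of the T cell RNA in these values was not tested. Gm10052 read 1.15 and 1.51 against 14.3 and 5.45, but all of its 31-base words occur in Hnrnpa1, so its counts are uncertain, and Hnrnpa1 read 30.0 and 32.4 against 25.4 and 25.1. Lrch4-sap25, whose name joins 2 genes, read 5.17 and 4.25 against 15.2 and 9.79, and how its counts were split from those of Lrch4 was not tested. H2-Ab1 is described with its family.

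**Figure D3:**
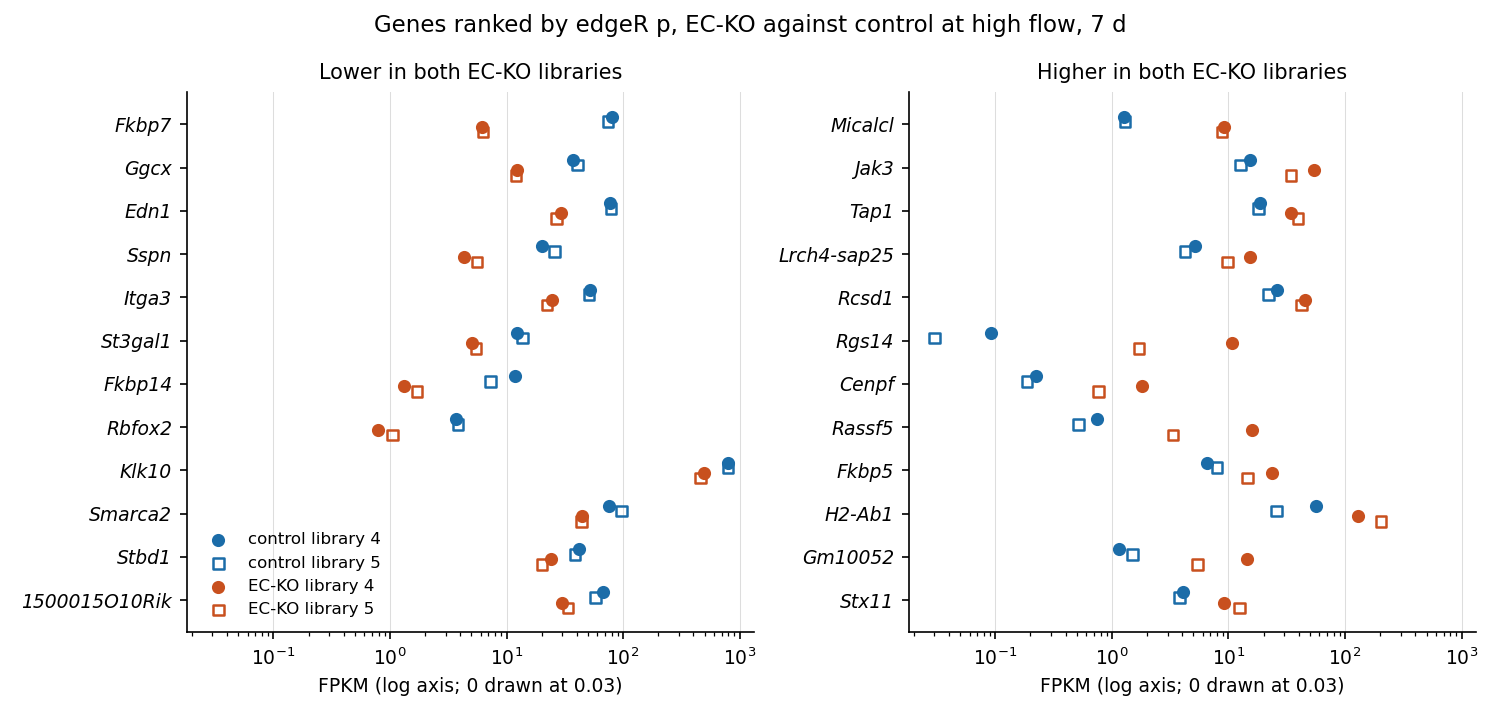
FPKM (log axis) of the 12 genes with the smallest p on each side in the 2 control libraries (blue) and the 2 EC-KO libraries (orange), with filled circles for number 4 and open squares for number 5. The groups do not overlap for any gene, as the choice required, and the EC-KO pair is close together on the left and wide apart for Rgs14 and Rassf5 on the right.

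MHC class II genes, which load peptides for helper T cells, were higher in both EC-KO libraries. All 8 members tested had groups that did not overlap (22.9% of all genes, higher) and an unadjusted p under 0.05 (4.43% of all genes, higher), and none passed edgeR's adjusted test. DESeq2 called 2. The median log2 fold change was 2.00, against 0.01 for all genes. The top library here was EC-KO library 5. The list took 305 and 105 CPM in the controls against 613 and 1483. H2-Ab1, a beta chain of the dimer, read 56.8 and 25.8 FPKM against 129 and 203, with means of 41.3 ± 21.9 and 166 ± 52.3 FPKM (SD, n = 2). Its partner H2-Aa read 50.1 and 19.1 against 95.9 and 193. Cd74, the invariant chain, read 116 and 30.4 against 241 and 783. Ciita, the coactivator of the family, read 0.759 and 0.408 against 1.34 and 2.49. Without EC-KO library 4 the median was 2.37 and edgeR called 3 members, H2-Ab1, Cd74 and H2-Aa, with adjusted p of 0.00726, 0.00726 and 0.0118, where 17 of all 12712 genes (0.134%) were called higher. In the fit of all 7 day artery groups without that library none of them was called, with H2-Ab1 at an edgeR adjusted p of 1. The summed markers of cells that usually carry these genes are given beside them. Macrophage and monocyte markers took 221 and 154 CPM against 173 and 154, dendritic cell markers 45.2 and 36.9 against 61.8 and 33.8, and B cell markers are given above. The part of such cells in the class II values was not tested.

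Interferon-stimulated genes were highest in EC-KO library 5. Of 28 members tested, 1 was higher at an unadjusted p under 0.05 (4.43% of all genes) and none was called by edgeR or DESeq2. The list took 3946 and 3542 CPM in the controls against 3753 and 4890. Iigp1, an immunity-related GTPase chosen after its values were seen, read 52.6 and 48.2 FPKM against 44.4 and 209. Gbp4, a guanylate-binding protein chosen in the same way, read 112 and 80.9 against 84.6 and 285. In both genes EC-KO library 4 lay among or below the controls, so the groups overlap. Irf1, one of the list's most abundant members, read 106 and 109 against 110 and 131. The median log2 fold change of the list was 0.10, and 0.27 without EC-KO library 4, where EC-KO library 5 stands alone for its group. MHC class I presentation had 14 members tested, with 5 at an unadjusted p under 0.05, all higher (4.43% of all genes), and a median log2 fold change of 0.26. Without control library 5 the 5 were 1, and DESeq2 called Tap1. H2-D1 and H2-K1, classical class I chains, read 2739 and 2649 against 3094 and 3178 FPKM and 1098 and 960 against 1168 and 1237. These differences are small beside those of class II.

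The list of DNA replication and mitosis genes had its highest total in EC-KO library 4, and its total in EC-KO library 5 lay near the controls. Of 30 tested, 20 had groups that did not overlap and 16 had an unadjusted p under 0.05, all higher, against 22.9% and 4.43% of all genes. None passed edgeR and DESeq2 called 7 (0.831% of all genes, in either direction). The median log2 fold change was 1.69, and 0.60 without EC-KO library 4, where 5 had an unadjusted p under 0.05, all higher (2.04% of all genes). The list took 486 and 544 CPM in the controls against 1197 and 569. Top2a, the topoisomerase of replicating DNA, read 1.49 and 2.54 FPKM against 12.6 and 3.06. Ccnb2, a mitotic cyclin, read 1.12 and 2.29 against 20.3 and 6.06. Abundant replication factors differed less, with Pcna at 41.1 and 37.7 against 52.7 and 41.6 and Mcm3 at 16.2 and 18 against 26.3 and 14.5. The T cell markers and this list both peak in EC-KO library 4, and the part of T cell RNA in it was not tested.

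**Figure D4:**
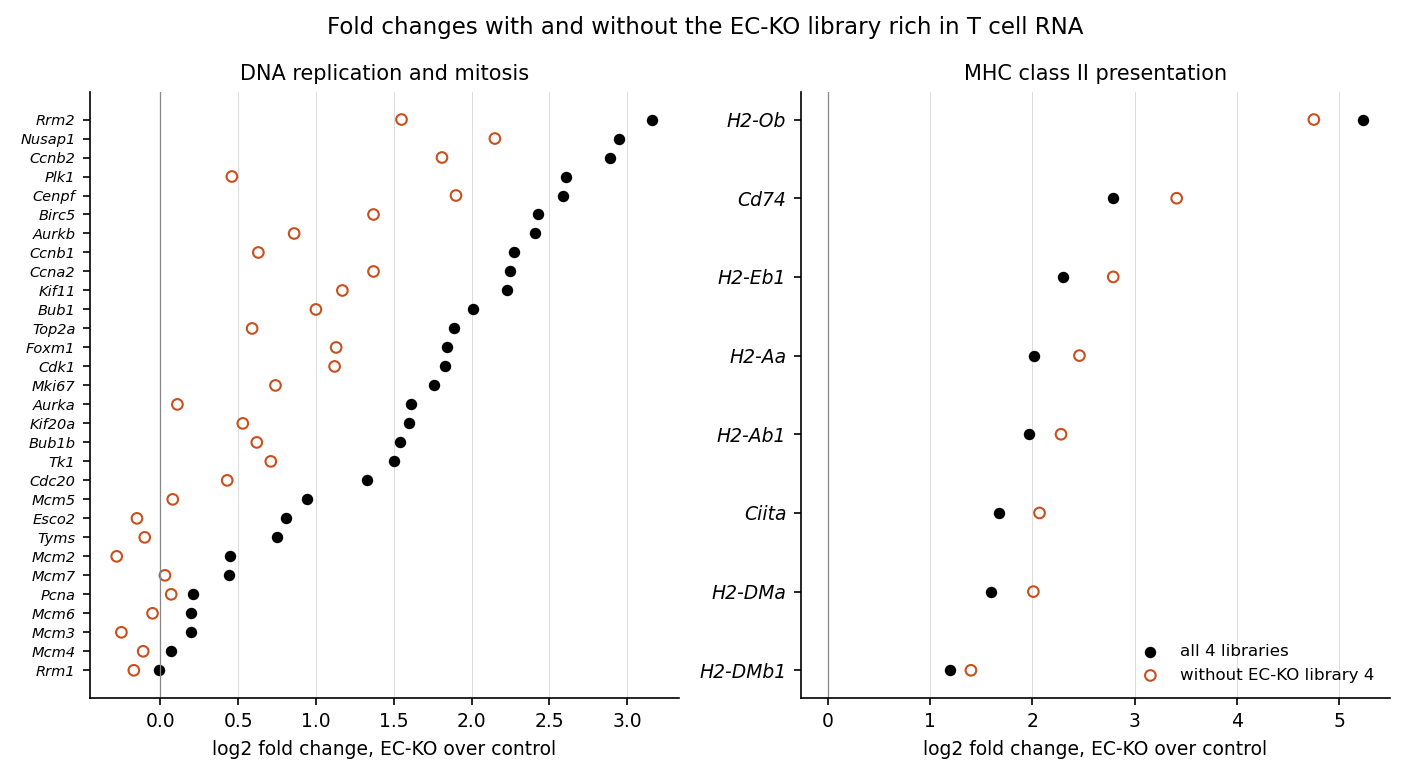
Log2 fold change (EC-KO over control) of each member of the DNA replication and mitosis list and of the MHC class II list, in all 4 libraries (black) and without EC-KO library 4 (open orange). The median of the mitosis list goes from 1.69 to 0.60 and that of the class II list from 2.00 to 2.37.

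Of 17 flow-induced genes tested, none had an unadjusted p under 0.05, and the median log2 fold change was −0.03. Klf2, the flow-induced transcription factor, read 903 and 447 FPKM against 1138 and 696, and Nos3, which makes nitric oxide, read 430 and 435 against 548 and 450. The groups overlap for Klf2. Its replicates spread as widely as the groups differ. Junction and polarity genes had 16 tested, with none at an unadjusted p under 0.05. Notch and arterial identity genes had 18 tested, with 1 higher at that level (4.43% of all genes), and 0 without EC-KO library 4 or without control library 5. Leukocyte adhesion and chemokine genes had 11 tested, with 2 higher at that level, and 1 without control library 5. None of these 4 lists held a call by edgeR, and DESeq2 called 1 member (0.831% of all genes, in either direction). It was the chemokine Cxcl10, listed at 0 FPKM in both controls and at 0.964 and 4.78 in EC-KO. Vcam1, which captures leukocytes, read 421 and 562 against 394 and 629, and Icam1 read 225 and 285 against 223 and 295.

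Of 24 TGF-beta and BMP genes tested, 4 had an unadjusted p under 0.05, all lower (2.8% of all genes), and DESeq2 called Bmp6 and Id2. None passed edgeR, and the 4 were 2 without EC-KO library 4 and 1 without control library 5. Bmp6, a ligand, read 550 and 712 FPKM against 376 and 419, a log2 change of −0.72 ± 0.18 (DESeq2 adjusted p = 0.0144, edgeR adjusted p = 0.574). Id2, a target of that pathway, read 192 and 218 against 102 and 140. DESeq2 also called Tpm1, a tropomyosin that stabilises actin filaments, which read 248 and 269 against 140 and 169. Of 31 matrix and integrin genes, 3 were higher and 3 lower at an unadjusted p under 0.05 (4.43% and 2.8% of all genes), and without control library 5 the 3 lower were 0. Col8a1, a short-chain collagen of vessel walls, read 34.2 and 42.2 against 24.6 and 25.1 (DESeq2 adjusted p = 0.0465). Aqp1, the water channel of endothelium, was on no list and chosen after its values were seen. It read 276 and 258 against 421 and 582 (edgeR adjusted p = 0.574, and 0.00763 without EC-KO library 4).

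Stress and metabolic lists held no call by edgeR. Of 20 immediate early and stress genes tested, 3 were higher at an unadjusted p under 0.05 (4.43% of all genes), and the list took 2302 and 1420 CPM against 3561 and 2000. Its median log2 fold change was 0.44, and −0.01 without EC-KO library 4, where 1 was higher and 3 lower at that level. Without control library 5, 1 was higher. Of 15 hypoxia targets, 2 were higher and 1 lower at that level (4.43% and 2.8% of all genes), and without control library 5 there were 1 higher and 0 lower. The circadian clock (17 tested), the respiratory chain (20), heat shock and cold-inducible genes (12) and fatty acid uptake (9) had none. Of the 13 genes that the study followed by qPCR, chosen on its low-flow libraries, Fkbp7 was the 1 called, and 7 others had groups that did not overlap with EC-KO the higher (22.9% of all genes). At low flow 9 of the 12 tested in both rose and 1 fell by edgeR's adjusted test (none with the pair numbered 1 added, as described with low flow), which is no independent evidence of direction, since that is where the study chose them. Ly6a, a surface protein of endothelium and lymphocytes, read 1557 and 1280 FPKM at high flow against 1601 and 1742, and Mmrn2, a matrix protein of vessels, read 355 and 389 against 451 and 439.

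Among the other splicing regulators, none was called at the level of the gene by edgeR or DESeq2. Of the 29 tested, 1 was higher at an unadjusted p under 0.05 in edgeR (4.43% of all genes). Groups did not overlap for 4 with EC-KO the higher and 7 with EC-KO the lower (22.9% and 16% of all genes). The median log2 fold change was −0.13, and −0.05 without EC-KO library 4. Of 11 genes with an exon that the study describes as regulated by Rbfox2, 2 had an unadjusted p under 0.05, both higher (4.43% of all genes), and none was called by edgeR or DESeq2. Without control library 5 there were 0, and without EC-KO library 4 there were 2 higher and 1 lower. With all 4 libraries the 2 were Myl6, a myosin light chain, at 638 and 524 FPKM against 856 and 758, and Ceacam1, an adhesion molecule, at 26.7 and 16.0 against 34.1 and 32.2. Fn1, fibronectin, read 60.6 and 62.8 against 57.2 and 49.8. Fbln2, a matrix glycoprotein, read 286 and 352 against 314 and 186, and its groups overlap. Tpm1, which also carries one of the 12 exons but is not on that list, was called by DESeq2 and not by edgeR, as given above. The 3 genes with a motif shown above were not called by either tool, and exon use was not analysed here.

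The other artery of the same design, the ligated low-flow carotid at 7 days, gives further EC-KO and control libraries, taken here with the numbers 4 and 5 (2 a side). The high-flow artery is the opposite carotid of ligated mice, so libraries at both flows may come from the same mice, which the sources used here do not state. A further low-flow pair, numbered 1, was not in that fit, which took the numbers that the high-flow libraries carry, and was added as an alternative. Cd3e read 24.9 FPKM in its control and 5.19 in its EC-KO library. There edgeR called 374 of 13159 genes (2.84%), 233 higher and 141 lower in EC-KO. With the pair numbered 1 added, or without low-flow control library 4 or low-flow EC-KO library 4, edgeR called 0 there, with 880, 3045 and 2039 genes at an unadjusted p under 0.05. These settings for the low-flow effect were chosen after seeing the data. Of the 12 genes on the lower side at high flow, 4 fell at low flow by edgeR's adjusted test: Fkbp7, Sspn, Fkbp14 and Rbfox2. Fkbp7 read 33.1 and 35.0 FPKM in the low-flow controls against 8.18 and 8.41, a log2 change of −2.02 ± 0.25 (edgeR adjusted p = 0.0244). Sspn read 10.8 and 11.5 against 3.86 and 3.19 (−1.64 ± 0.26, edgeR adjusted p = 0.0354). Fkbp14 read 11.6 and 11.3 against 1.33 and 0.346 (−3.74 ± 0.63, edgeR adjusted p = 0.0357). Rbfox2 read 5.73 and 2.74 against 0.169 and 0.622 (−3.41 ± 0.62, edgeR adjusted p = 0.0404). Each lost its edgeR call with the pair numbered 1 added, at adjusted p from 0.444 to 0.692, with log2 changes of −2.10, −1.63, −2.18 and −2.61. In that pair they read 58.8, 23.1, 13.5 and 3.27 FPKM in the control and 12.2, 7.19, 6.1 and 1.09 in EC-KO, in the order above. In culture these 4 were again lower in EC-KO, with Sspn at 5.75 and 0 and Fkbp14 at 19.3 and 1.53 FPKM. Micalcl, on the higher side, read 0.0603 and 1.0 against 2.73 and 2.96 at low flow and 1.6 against 6.68 in culture.

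Other genes were placed differently at low flow. Edn1 read 157 and 371 FPKM in the low-flow controls against 686 and 186, so the groups overlap there. Klk10 read 5.76 and 9.29 against 9.59 and 16.9, far below its level at high flow in either group. Cenpf fell at low flow in EC-KO, from 6.3 and 13.4 to 1.69 and 2.36 (edgeR adjusted p = 0.0488, and 0.0553 to 0.22 when any 1 low-flow library was left out). The list of DNA replication and mitosis had a median log2 fold change of −1.85 at low flow, and took 6310 and 8204 CPM in the low-flow controls against 1429 and 3402. The difference of the EC-KO effect between the flows was tested in a fit that treats the 8 libraries as independent, although both arteries of a mouse may be among them. No gene passed edgeR's adjusted test (0%), 2036 of 13159 (15.5%) had an unadjusted p under 0.05, and 596 of 12660 (4.71%) were called by DESeq2. The unadjusted count was 538 with the low-flow pair numbered 1 added and 1036 without EC-KO library 4, and leaving out low-flow control library 5 gave 58 calls. Among the mitosis list, 27 of 30 reached an unadjusted p under 0.05 in this test, and 20 were called by DESeq2. The smallest adjusted p was 0.107. Kpna2, a nuclear import carrier that rises in dividing cells, read 21 and 25.1 FPKM against 41.9 and 26.1 at high flow and 317 and 289 against 50.3 and 63.2 at low flow. Parm1, a mucin-like membrane protein, read 70.1 and 71.4 against 68.1 and 67.6 at high flow and 13.5 and 14.2 against 47.7 and 47.3 at low flow. Aatk, a membrane-bound kinase, read 2.38 and 2.94 against 3.66 and 2.7 at high flow, and at low flow 1.15 and 1.4 in the controls and 0 in both EC-KO libraries. Its low-flow EC-KO values are listed at 0, so no fold is given.

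**Figure D5:**
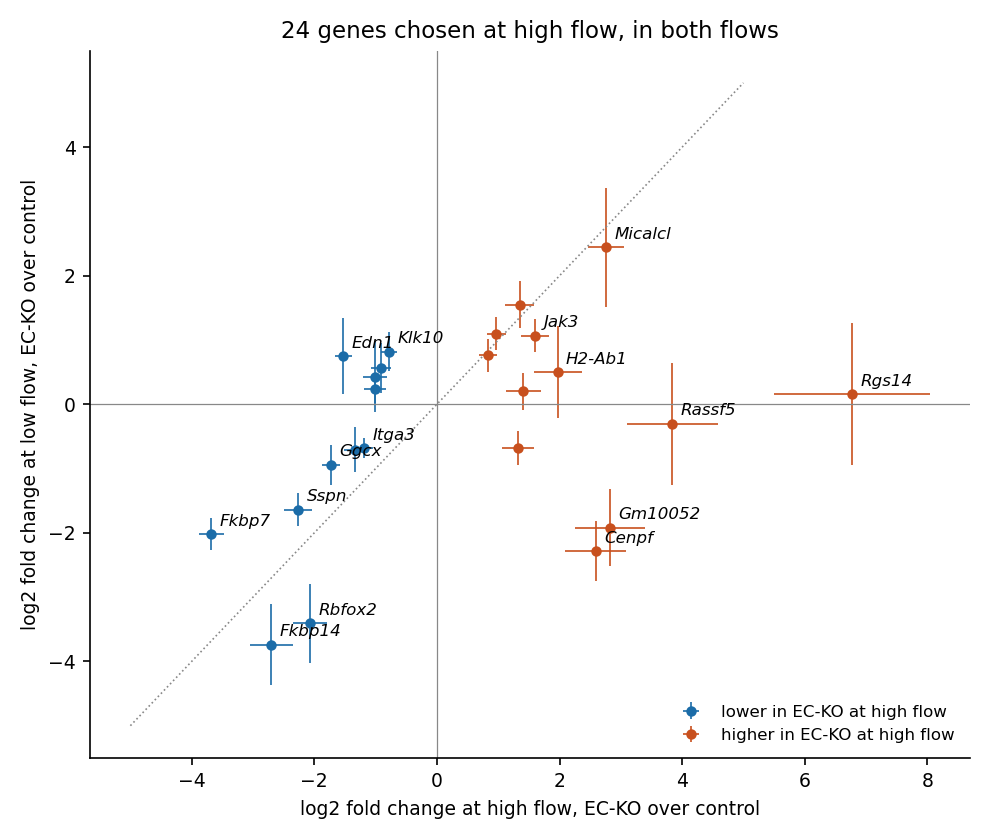
Log2 fold change (EC-KO over control) ± SE at low flow against that at high flow for the 24 genes chosen at high flow, with the dotted line where both are equal. Fkbp7, Sspn, Fkbp14 and Rbfox2 lie at the lower left, Micalcl at the upper right, and 8 of the 12 higher and 7 of the 12 lower genes have the same sign at both flows. Those with opposite signs are Cenpf, Gm10052, Rassf5, Fkbp5, Edn1, Klk10, Smarca2, Stbd1 and 1500015O10Rik.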

How the data were processed

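RNA was made into libraries with a kit for low input that does not mark strand and was sequenced with paired reads of 150 bp. The authors aligned reads with STAR 2.5.1b and deposited expected counts per gene from RSEM 1.2.15 (mm9), with effective lengths beside them. The table has 21675 entries. The 1 without a gene name, at most 0.0658% of a library, was left out. Of 206 value columns 17 were used and 189 were not, among them deposited levels already scaled for length and depth, and the shallower first runs of 1 low-flow control and 1 low-flow EC-KO library, whose deeper second runs stand for them. The total counts per library are given in the report. The expected counts were rounded and tested with edgeR 4.0.16 (quasi-likelihood test, filterByExpr, TMM) in R 4.3.3, and genes with a Benjamini-Hochberg adjusted p under 0.05 were called. DESeq2 1.42.0, the tool of the study, was the alternative. The difference between flows was an interaction contrast over 8 libraries. FPKM was computed from the count, the effective length and the library total. With 2 against 2 an exact permutation test of 1 value cannot go below p = 0.333, so none is given. Genes were named by rank of p, 12 in each direction, with groups that do not overlap and a mean of at least 1 FPKM in a group. The named genes also include the Rbfox family, the called or most abundant members of the 42 lists, and the 6 smallest adjusted p of the difference between flows. The counts of several lists, which held no called gene, are not reported here. The members and lists were chosen with earlier results of these data known. The code was tested on simulated data. Other normalizations, filters, a replicate block and leaving out each library in turn were tried. Gene positions and sequences are from the mouse annotation and genome of the mm9 build.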

Additional observations from a re-analysis of the deposited data

Results flagged for a closer look

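For 9 of the genes named, EC-KO lay above control at one flow and below it at the other, and the difference (log2, high minus low) was tested in edgeR over 8 libraries. It was 4.87 ± 0.70 (SE) for Cenpf, 2.02 ± 0.37 for Fkbp5, 4.75 ± 0.90 for Gm10052, −1.59 ± 0.41 for Klk10, 2.91 ± 0.33 for Kpna2, −1.90 ± 0.22 for Parm1, 4.64 ± 0.57 for Kif23, 3.43 ± 0.45 for Prc1 and 7.02 ± 0.94 for Spag5. None passed edgeR's adjusted test, with adjusted p from 0.107 to 0.182. With the low-flow pair numbered 1 added, the adjusted p of each was 0.986 and the difference for Parm1 was −1.13. Without low-flow control library 5, Cenpf, Kpna2, Parm1, Kif23, Prc1 and Spag5 passed, with adjusted p from 0.0387 to 0.0484. These genes are listed because every EC-KO library was on one side of every control at high flow and on the other side at low flow, and Kpna2, Parm1, Kif23, Prc1 and Spag5 were named for the small p of this same difference, so the separation and the sizes describe the choice and support nothing. Cenpf, Kif23, Prc1 and Spag5, all of cell division, read 1.8, 4.96, 8.5 and 2.46 FPKM in EC-KO library 4 and 0.771, 2.68, 6.39 and 0.923 in EC-KO library 5. EC-KO library 4 is the library with the most T cell RNA, and its part in these values was not tested.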

How the results depend on the processing

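Fkbp7 was called in 13 of 14 settings at high flow. The exception was the fit of all 7 day artery groups without EC-KO library 4, where its log2 fold change was −3.62 (edgeR adjusted p = 0.322) and 0 genes were called by edgeR, with 161 at an unadjusted p under 0.05. The count of genes called, 1 with edgeR, was 110 with DESeq2 and 13 with no filter on low counts. Leaving out 1 library gave 1 to 258 calls. With the column numbers as a replicate block it was 95 (83 higher, 12 lower), 15 of them T cell markers. The differences between libraries 4 and 5 in control and EC-KO correlated at 0.23 across genes, and 2 pairs cannot show a pairing. The difference between flows, with 0 calls, gave 596 with DESeq2, 94 with no filter and 0 with the block, and 0 to 58 when 1 of the 8 libraries was left out. Leaving out EC-KO library 5 gave 22 and leaving out low-flow control library 5 gave 58. The low-flow count of 374 was 0 with the low-flow pair numbered 1 added and 0 to 542 when 1 low-flow library was left out, settings chosen after seeing the data. Members of the 42 lists that were called numbered 1, or 19 with DESeq2 and 8 without EC-KO library 4. No gene named by rank of p reversed its direction in the settings run. Of the uncalled genes given beside them, the log2 fold change turned to −0.25 for Mcm3 without EC-KO library 4, to −0.26, −0.27, −0.06 and −0.41 for Iigp1, Gbp4, Irf1 and Vcam1 without EC-KO library 5, and to −0.01 for Klf2 without control library 5, and those of Icam1, Pecam1, Lrch4 and Plekha8 also changed sign when 1 library was left out. The causes of these changes were not tested, other than fewer libraries or more genes entering the fit. With 2 libraries a side, a gene that was not called cannot be taken as unchanged.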
